A study of Mus musculus with 10 samples.

Results

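The genes described here are the MHC class II presentation genes H2-Aa, H2-Ab1, H2-Eb1, H2-DMa, H2-DMb1, H2-DMb2, H2-Oa, Cd74, Ciita and Ctss. They were chosen by name, as the rows of the raw gene count table whose Ensembl identifier carries one of these symbols on mouse build GRCm38, and they are 10 of the 55421 genes in the table. All 10 had enough reads to be tested in every comparison.

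RNA was sequenced from spleen myeloid-derived suppressor cells (MDSC, labelled GR-1+; the study's methods call them polymorphonuclear, Ly6G+Ly6C-, from magnetic beads) and from tumor-associated macrophages (TAM, sorted as live CD45+CD11b+F4/80+Ly6G- cells). The donors were young adult mice carrying a fibrosarcoma grown from the MC17-51 line (written M17 in the labels), at day 15 of tumor growth. Every mouse carried the floxed Shp2 allele (Shp2f/f), which is the Ptpn11 gene encoding the phosphatase SHP-2, and the second genotype, Shp2f/fLysMcre, also carried Cre expressed from the lysozyme M (Lyz2) locus, which is active in macrophages and neutrophils. The groups were Shp2f/f MDSC (n = 2), Shp2f/fLysMcre MDSC (n = 2), Shp2f/f TAM (n = 3) and Shp2f/fLysMcre TAM (n = 3). No group of Cre mice without floxed alleles was analysed here, so an effect of the Cre insertion and an effect of the deletion cannot be told apart. By the study's methods TAM and MDSC came from the same mice, and which libraries share a mouse is not given. The labels do not say whether a sample was 1 mouse or a pool, so p-values measure the spread between these samples only.

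MHC class II molecules display peptides from the endosome to CD4 T cells. The alpha and beta chains assemble in the endoplasmic reticulum around the invariant chain, which plugs the peptide groove and directs the complex to endosomes, where proteases trim the invariant chain to a short remnant. The chaperone DM exchanges that remnant for antigen peptide, DO inhibits DM, and the transactivator CIITA, which interferon-gamma induces, switches on the genes of the chains, the invariant chain and DM together through a shared promoter module. Macrophages use several of the same lysosomal proteases for general protein turnover.

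The 10 libraries held 28844660 to 38222998 counts. Ptpn11 in Shp2f/f TAM was at 121, 125 and 121 CPM (counts scaled to library size with the TMM factors of edgeR) and in Shp2f/fLysMcre TAM at 50.9, 54.2 and 53.9 CPM. In MDSC it was at 113 and 99.2 CPM in Shp2f/f and 94.8 and 79.7 CPM in Shp2f/fLysMcre, so the groups did not overlap but the fall was small (log2 fold change −0.29, SE 0.14, edgeR adjusted p = 0.361). Lyz2, the locus that holds Cre, had a log2 fold change of −7.68 in MDSC and −8.33 in TAM. The MDSC libraries carried both granulocyte and monocyte transcripts. The summed level of 12 neutrophil markers was 10019 to 10364 CPM in Shp2f/f MDSC and 28303 to 32212 CPM in Shp2f/fLysMcre MDSC, against 307 to 320 and 442 to 468 CPM in TAM. In MDSC of both genotypes the largest of these were S100a8 and S100a9, with TMM-scaled means of 3331 and 3212 CPM in Shp2f/f. Ly6g, the gene of the Ly6G marker, was at 8.92 and 11.9 CPM in Shp2f/f MDSC. The sum of 12 macrophage and monocyte markers was 5506 to 5560 CPM in Shp2f/f MDSC and 4151 to 4529 CPM in Shp2f/fLysMcre MDSC, against 8621 to 8914 and 11333 to 11934 CPM in TAM. Among MDSC the second Shp2f/fLysMcre library stood apart with a sum of 573 CPM over 8 fibroblast markers, against 7.28 to 25.7 CPM in the other 3 MDSC libraries. The TAM libraries also carried these transcripts, at 257 to 262 CPM in Shp2f/f and 223 to 233 CPM in Shp2f/fLysMcre.

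The members with the prefix H2, 7 of the 10, lie in the MHC region of chromosome 17. On GRCm38, H2-Aa spans chr17:34282744-34287823 on the minus strand, H2-Ab1 chr17:34257689-34269419 on the plus strand and H2-Eb1 chr17:34305867-34316674 on the plus strand. H2-DMa (chr17:34119541-34139101), H2-DMb2 (chr17:34143307-34151555), H2-DMb1 (chr17:34153072-34160230) and H2-Oa (chr17:34092340-34095234) are all on the plus strand. Ciita lies at chr16:10480059-10528418 and Ctss at chr3:95526786-95556403, both on the plus strand. The counts were taken over annotated exons, and whether the counting used strand is not given in the sources used here. H2-DMa shares 360 exon bases with Brd2, H2-Oa 321 with BC051537 and Ciita 329 with Dexi on the opposite strand, so a part of their reads may come from those neighbours, and H2-DMb1 and H2-DMb2 are close paralogs whose reads the counting could have split.

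The promoters are shown because CIITA acts through a shared promoter module, whose letters can be looked for in each member. The RefSeq promoter table (GRCm38.p6) held entries for 7 of the 10 members and none for H2-Ab1, Cd74 and Ciita. After the sequences had been read, 2 motifs were searched on both strands, namely the letters CNNNNAAC starting 25 to 45 bases before GATTGG (an inverted CCAAT box), and GAAA followed by 2 free bases and GAAA again, a core of interferon response elements. The first pair is written in capitals in the sequences of H2-Aa (chr17:34287852-34287922, minus strand), H2-Eb1 (chr17:34305758-34305827, plus strand), H2-DMb2 (chr17:34145108-34145178, plus strand) and H2-Oa (chr17:34092285-34092355, plus strand). The second motif is in capitals in Ctss (chr3:95526735-95526785, plus strand).
H2-Aa: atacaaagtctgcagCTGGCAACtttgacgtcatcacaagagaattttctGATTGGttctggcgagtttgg
H2-Eb1: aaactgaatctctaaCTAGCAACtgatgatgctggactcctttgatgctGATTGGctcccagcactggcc
H2-DMb2: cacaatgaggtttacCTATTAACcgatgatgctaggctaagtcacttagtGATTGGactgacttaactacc
H2-Oa: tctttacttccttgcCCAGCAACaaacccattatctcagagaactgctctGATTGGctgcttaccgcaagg
Ctss: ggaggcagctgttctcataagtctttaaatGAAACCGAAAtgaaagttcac
The spaced pair was found in H2-Aa, H2-Eb1, H2-DMb1, H2-DMb2 and H2-Oa, and in 331 (1.01%) of all 32851 promoters in the table. It was not found in the 2 entries of H2-DMa or in Ctss. The starts of its 2 parts lay 34 or 35 bases apart in the 4 chain and chaperone genes printed here, and H2-Oa also held an overlapping pair 31 bases apart. GATTGG alone was in 16.11% of promoters and the GAAA repeat in 3.44%. A match describes the letters of the window and is not evidence of binding.

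Per kilobase of exon, the members covered a wide range of levels. In Shp2f/f TAM, Ctss, which encodes the lysosomal protease cathepsin S, was highest at 1965 ± 118 CPM per kb (SD, n = 3), followed by Cd74, the invariant chain, at 575 ± 11.2. The class II chains came next, with H2-Eb1 at 129 ± 2.36, H2-Ab1 at 116 ± 3.56 and H2-Aa at 91.3 ± 2.08 CPM per kb, and neighbours among these 3 did not overlap. Exon length counts every annotated exon base of a gene, 1944, 2568 and 3798 bases in that order. In CPM the means of the 3 chains ran in reverse, at 252, 298 and 347. The order per kb of genes near each other in level therefore rests on these lengths. The DM chains H2-DMb1 and H2-DMa stood at 19.1 ± 0.675 and 14.2 ± 0.561 CPM per kb, and H2-DMb2 at 2.73 ± 0.231. Ciita, at 1 ± 0.122, and H2-Oa, the alpha chain of DO, at 0.692 ± 0.0385 CPM per kb, were the lowest. The order per kb was the same in Shp2f/fLysMcre TAM, where H2-Eb1 (95.3 ± 8.75) and H2-Ab1 (89.5 ± 6.22) lay within their spread of each other. In Shp2f/f MDSC, H2-Ab1 (139 ± 10.9, n = 2) was above H2-Eb1 (101 ± 6.52), H2-DMa (45.7 ± 5.50) was above H2-DMb1 (37.3 ± 1.48), and Ciita (8.33 ± 0.614) was above H2-DMb2 (4.08 ± 0.135). In Shp2f/fLysMcre MDSC the last places were H2-Oa (3.48 ± 0.488) and H2-DMb2 (3.28 ± 0.103), within their spread of each other.

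The alpha chain that pairs with the H2-Eb1 product is annotated in this reference as the pseudogene H2-Ea-ps. It was listed at 0 in all 4 MDSC libraries and did not exceed 0.0323 CPM in the TAM libraries, beside 168 to 257 CPM for H2-Eb1 in TAM. Of the other chains, H2-Ob, the beta chain of DO, was at 7.04 and 8.65 CPM in Shp2f/f MDSC, 4.14 and 4.74 CPM in Shp2f/fLysMcre MDSC, and between 1.07 and 1.69 CPM in TAM. H2-Eb2 did not exceed 1.33 CPM in any library.

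**Figure D1:**
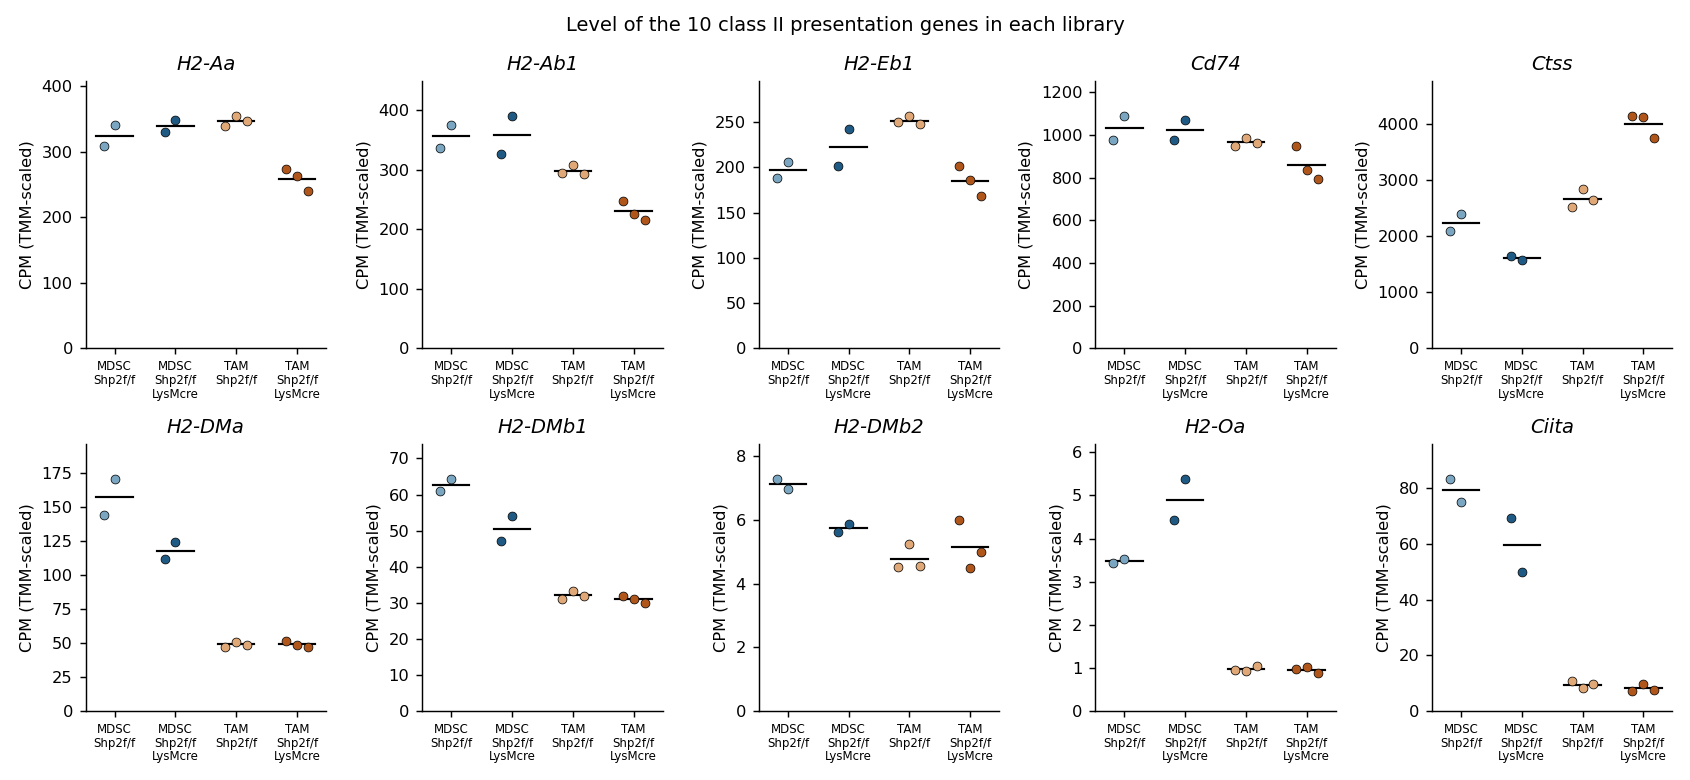
Level of each of the 10 class II presentation genes (y axis, CPM scaled by TMM, from 0) in each library of the 4 groups (x axis), with 1 point per library and a bar at the group mean. In TAM, H2-Aa falls from 339 to 355 CPM in Shp2f/f to 241 to 274 CPM in Shp2f/fLysMcre while Ctss rises from 2515 to 2835 CPM to 3746 to 4145 CPM, and Ciita in TAM does not exceed 10.7 CPM against 50.02 to 83.5 CPM in MDSC.

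The first comparison asked how deletion of Shp2 in myeloid cells changed the class II genes of tumor macrophages. In TAM the 3 conventional chains fell to between 0.719- and 0.752-fold of the control, the invariant chain fell less, to 0.868-fold, the protease gene Ctss rose to 1.46-fold, and no change was called for DM, DO and Ciita. In counts, 5 of the 10 members were called at an adjusted p under 0.05 (edgeR quasi-likelihood test over 14446 genes), 1 higher and 4 lower. The background was high in this comparison, with 50.2% of all genes tested called, 23.9% higher and 26.3% lower, so the share of members called was close to that of the genes at large. The median log2 fold change over the 10 members was −0.15, against −0.01 over all genes tested.

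H2-Aa, the alpha chain of the I-A molecule, was at 339, 355 and 347 CPM in Shp2f/f TAM and at 274, 263 and 241 CPM in Shp2f/fLysMcre TAM. All 3 libraries of the deleted genotype were below all 3 controls, a log2 fold change of −0.46 (SE 0.0478, edgeR adjusted p = 1.43e-05). Its partner H2-Ab1, the beta chain of I-A, was at 294, 308 and 292 CPM in Shp2f/f and 247, 226 and 216 CPM in Shp2f/fLysMcre. The groups again did not overlap, and the log2 fold change was −0.41 (SE 0.0499, edgeR adjusted p = 4.47e-05). H2-Eb1, the beta chain of I-E, was at 250, 257 and 248 CPM against 202, 186 and 168 CPM. It was lower in every Shp2f/fLysMcre library (log2 fold change −0.48, SE 0.0568, edgeR adjusted p = 3.80e-05). The 95% intervals of the 3 chains, −0.56 to −0.35 for H2-Aa, −0.52 to −0.30 for H2-Ab1 and −0.60 to −0.35 for H2-Eb1, covered much the same range.

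Cd74, which lies outside the MHC at chr18:60803848-60812652 (GRCm38, plus strand), was at 949, 986 and 962 CPM in Shp2f/f TAM and at 948, 835 and 795 CPM in Shp2f/fLysMcre TAM. The first library of the deleted genotype lay just under the lowest control, and the other two were clearly below. The log2 fold change was −0.20 (SE 0.0555, edgeR adjusted p = 0.00961). This call was lost without the second Shp2f/fLysMcre library, where the log2 fold change was −0.18 (edgeR adjusted p = 0.0590), and in one fit of all 10 libraries, where it was −0.17 (edgeR adjusted p = 0.137).

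Ctss went the other way. It was at 2515, 2835 and 2654 CPM in Shp2f/f TAM and at 4145, 4117 and 3746 CPM in Shp2f/fLysMcre TAM. Every library of the deleted genotype was above every control (log2 fold change 0.55, SE 0.0444, edgeR adjusted p = 1.98e-06). It was the single member that rose, and under the alternative settings its log2 fold change stayed between 0.45 and 0.59. The calls of H2-Aa, H2-Ab1, H2-Eb1 and Ctss held under each of the 14 alternatives run, with adjusted p values up to 0.00721.

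The genes of peptide exchange were not called in TAM. H2-DMa was at 47.3, 51.1 and 48.6 CPM in Shp2f/f and 51.9, 48.5 and 47.2 CPM in Shp2f/fLysMcre, and H2-DMb1 at 31.1, 33.3 and 32.0 against 32.0, 31.0 and 29.9 CPM. Their values overlapped, and the 95% intervals of the log2 fold change ran from −0.14 to 0.08 for H2-DMa and from −0.19 to 0.01 for H2-DMb1. These intervals do not reach the falls measured for H2-Aa, H2-Ab1 and H2-Eb1. H2-DMb2 (4.49 to 5.98 CPM over the 6 libraries) and H2-Oa (0.883 to 1.04 CPM) also overlapped between the genotypes, with wider intervals of −0.20 to 0.35 and −0.54 to 0.41 at 136 to 201 and 24 to 38 counts per library. Ciita was at 10.7, 8.37 and 9.55 CPM in Shp2f/f and 7.27, 9.60 and 7.57 CPM in Shp2f/fLysMcre. One library of the deleted genotype was above 2 of the controls, and the log2 fold change of −0.26 did not pass (SE 0.119, edgeR adjusted p = 0.0972, 95% interval −0.52 to 0.01). It was called lower without the second Shp2f/fLysMcre library (−0.39, edgeR adjusted p = 0.0239), without the second Shp2f/f library (−0.34, edgeR adjusted p = 0.0454), with no low-count filter (−0.27, edgeR adjusted p = 0.0305) and with Storey q values (q = 0.0286). Storey q values also called H2-DMb1 lower (q = 0.0402).

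Scaling by total counts alone, in place of TMM, moved the median of all genes in the TAM comparison to −0.11 on the log2 scale. Under it 8 members were called, 1 higher and 7 lower, and H2-DMb2 changed sign to −0.03 without being called. The 3 added calls were H2-DMa (−0.13), H2-DMb1 (−0.19) and Ciita (−0.36), all to be read against that median. Over all genes 2342 were then called higher and 5227 lower, in place of 3452 and 3805.

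**Figure D2:**
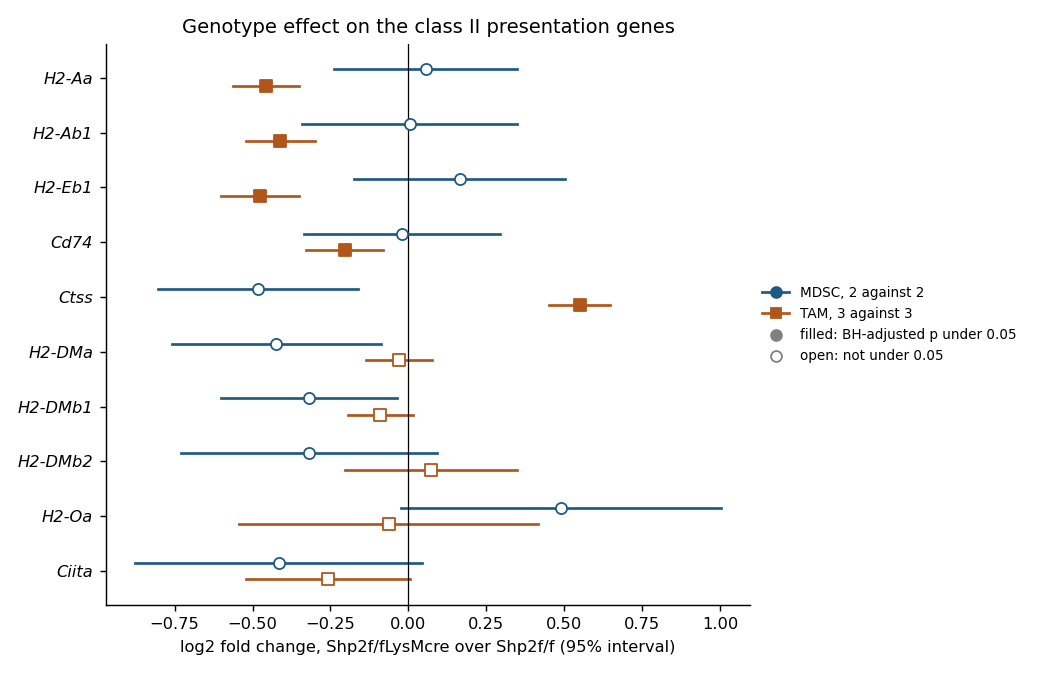
Log2 fold change of Shp2f/fLysMcre over Shp2f/f for each member (x axis) in MDSC (circles, 2 against 2 libraries) and TAM (squares, 3 against 3), with 95% intervals as lines. Filled symbols have an edgeR adjusted p under 0.05. The TAM intervals of H2-Aa, H2-Ab1, H2-Eb1 and Cd74 lie below 0 and that of Ctss above 0, while no MDSC symbol is filled and Ctss in MDSC lies at −0.48.

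The same question was asked of the spleen MDSC. None of the 10 members was called there by edgeR, beside 4.28% of the 14806 genes tested, 3.76% higher and 0.52% lower. DESeq2 called 1 of the 10, Ctss, and 1256 of all genes. In edgeR 3 members, H2-DMa, H2-DMb1 and Ctss, had an unadjusted p under 0.05, and the share of all genes under that value was not counted. The median log2 fold change of the members was −0.17, against −0.01 over all genes.

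The chains and the invariant chain overlapped between the genotypes in MDSC. H2-Aa was at 309 and 341 CPM in Shp2f/f and 330 and 348 CPM in Shp2f/fLysMcre, H2-Ab1 at 336 and 375 against 327 and 390 CPM, and H2-Eb1 at 188 and 206 against 201 and 242 CPM. Cd74 was at 977 and 1090 CPM against 977 and 1071 CPM. Their log2 fold changes were 0.06, 0.00, 0.17 and −0.02, with 95% intervals that ranged from −0.34 at the lowest to 0.50 at the highest, so changes of the size seen in TAM lay outside the intervals for H2-Aa, H2-Ab1 and H2-Eb1.

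For the other 6 members the MDSC libraries of the genotypes did not overlap. With 2 libraries a group such separation is common without an effect, and its share over all genes was not counted. Ctss was at 2101 and 2387 CPM in Shp2f/f and 1642 and 1583 CPM in Shp2f/fLysMcre (log2 fold change −0.48, SE 0.128, edgeR adjusted p = 0.118). H2-DMa was at 144 and 171 CPM against 112 and 124 CPM (−0.42, SE 0.135, edgeR adjusted p = 0.172), and H2-DMb1 at 60.9 and 64.4 against 47.1 and 53.9 CPM (−0.32, SE 0.113, edgeR adjusted p = 0.216). Both Shp2f/fLysMcre libraries were lower in each of these, in cells whose Ptpn11 fell little, but with 2 libraries a group the fit did not separate the values from the spread between libraries. Ciita was at 83.5 and 75.2 CPM against 69.4 and 50.02 CPM (−0.42, edgeR adjusted p = 0.308) and H2-DMb2 at 7.29 and 6.96 against 5.61 and 5.86 CPM (−0.32, edgeR adjusted p = 0.379). H2-Oa was the exception in direction, at 3.43 and 3.52 CPM in Shp2f/f and 4.42 and 5.39 CPM in Shp2f/fLysMcre (0.49, edgeR adjusted p = 0.281), while its partner H2-Ob had a log2 fold change of −0.83 (edgeR adjusted p = 0.0964). The macrophage and monocyte markers were also lower in sum in Shp2f/fLysMcre MDSC, where 8 of the 12 had a negative log2 fold change and 1 was called, and the neutrophil markers were higher, with 8 of 12 called. The part of these shifts in the members' values was not tested.

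The MDSC calls turned on single libraries. Without the second Shp2f/fLysMcre library, which carried the fibroblast transcripts, the log2 fold changes were −0.49 for H2-DMa, −0.41 for H2-DMb1 and −0.45 for Ctss. Without the first they were −0.71 for Ciita and −0.55 for Ctss. Each was called lower in its fit by edgeR, but the calls over all genes rose there as well. No member was called without either Shp2f/f library. Such fits left 1 sample in a group, so their calls are not a result about the members.

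Whether the genotype effect differed between the cell types was tested in one model of all 10 libraries. The difference, TAM minus MDSC, was called for 4 of the 10 members, 2 higher and 2 lower, beside 24.9% of the 16581 genes tested, 12.2% higher and 12.7% lower. Ctss differed most, by 1.06 on the log2 scale (SE 0.115, edgeR adjusted p = 0.000174), having risen in TAM and with lower values in Shp2f/fLysMcre MDSC. H2-Eb1 differed by −0.61 (SE 0.136, edgeR adjusted p = 0.00950) and H2-Aa by −0.48 (SE 0.102, edgeR adjusted p = 0.00762), both with the more negative effect in TAM. H2-DMa differed by 0.42 (SE 0.120, edgeR adjusted p = 0.0296), although its genotype effect was called in neither cell type. H2-Ab1 was at −0.39 and just missed the threshold (SE 0.129, edgeR adjusted p = 0.0540). For H2-DMb1, H2-DMb2, H2-Oa, Cd74 and Ciita the differences were 0.26, 0.42, −0.52, −0.16 and 0.19, with edgeR adjusted p values from 0.0924 to 0.597.

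The model treats TAM and MDSC libraries as independent, although they came from the same mice. With libraries of the same number paired across the cell types (a replicate block chosen after seeing the data) Ctss alone was called, at 1.10 (edgeR adjusted p = 0.0204), and 970 genes in all. The call for Ctss held under every alternative run, with adjusted p values up to 0.0204. Those for H2-Aa and H2-Eb1 were also lost without the first Shp2f/f MDSC library (edgeR adjusted p = 0.0648 and 0.0676), and that for H2-DMa was also lost without the second Shp2f/f MDSC library (0.32, edgeR adjusted p = 0.1096), without any 1 of 4 TAM libraries, in both voom fits and with total-count scaling (0.25, edgeR adjusted p = 0.179). With that scaling 4 members were called, 1 higher and 3 lower, and over all genes 1234 were called higher and 3132 lower, in place of 2030 and 2102.

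The next comparison set tumor macrophages against spleen MDSC. Within Shp2f/f, the chains and the invariant chain differed by at most 0.35 on the log2 scale and in both directions, while H2-DMa, H2-DMb1, H2-DMb2, H2-Oa and Ciita were lower in TAM by 0.58 to 3.06. In that genotype 8 of the 10 members were called, 2 higher and 6 lower in TAM, against 69.6% of the 16581 genes tested (35.1% higher, 34.6% lower). In Shp2f/fLysMcre 9 members were called, 1 higher and 8 lower, against 68.9% of genes (32.3% higher, 36.6% lower). The cells differed in organ and in isolation method as well as in type, and these cannot be told apart; nor, in bulk RNA, can fewer cells of a type and less RNA per cell.

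Ciita showed the largest difference of the members. It was at 75.2 and 83.5 CPM in Shp2f/f MDSC and at 8.37 to 10.7 CPM in Shp2f/f TAM, a 0.120-fold level (log2 fold change −3.06, SE 0.161, edgeR adjusted p = 9.22e-08). In Shp2f/fLysMcre it was at 0.137-fold (−2.87, SE 0.163, edgeR adjusted p = 1.72e-07). H2-Oa was lower by −1.83 in Shp2f/f and −2.36 in Shp2f/fLysMcre, H2-DMa by −1.68 and −1.26, and H2-DMb1 by −0.96 and −0.71, and each was called in both genotypes. H2-DMb2 was called in Shp2f/f (−0.58, edgeR adjusted p = 0.00475) and not in Shp2f/fLysMcre (−0.15, edgeR adjusted p = 0.358).

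The chains differed little beside these. In Shp2f/f, H2-Aa (0.10, edgeR adjusted p = 0.262) and Cd74 (−0.10, edgeR adjusted p = 0.336) were not called, H2-Ab1 was lower (−0.26, edgeR adjusted p = 0.0287) and H2-Eb1 was higher in TAM (0.35, edgeR adjusted p = 0.00842). In Shp2f/fLysMcre all 4 were lower in TAM, with H2-Ab1 at −0.64, H2-Aa at −0.39, H2-Eb1 at −0.26 and Cd74 at −0.25. Ctss was higher in TAM in both genotypes, by 0.25 in Shp2f/f (edgeR adjusted p = 0.0203) and 1.31 in Shp2f/fLysMcre (edgeR adjusted p = 4.54e-07). The smaller of these calls, those of H2-Ab1, H2-Eb1 and Ctss in Shp2f/f and of H2-Eb1 and Cd74 in Shp2f/fLysMcre, were each lost when 1 library was left out. For H2-Eb1 in Shp2f/fLysMcre the value without the second Shp2f/fLysMcre MDSC library was −0.12 (edgeR adjusted p = 0.275), and for Ctss in Shp2f/f the value without the first Shp2f/f MDSC library was 0.16 (edgeR adjusted p = 0.231). With the block across cell types 5 members were called in Shp2f/f, H2-Ab1, H2-DMb2 and Ctss being lost (edgeR adjusted p = 0.139, 0.0662 and 0.0521), and 7 in Shp2f/fLysMcre, H2-Eb1 and Cd74 being lost (0.220 and 0.175). The comparisons of cell types share their libraries with the comparisons of genotypes.

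**Figure D3:**
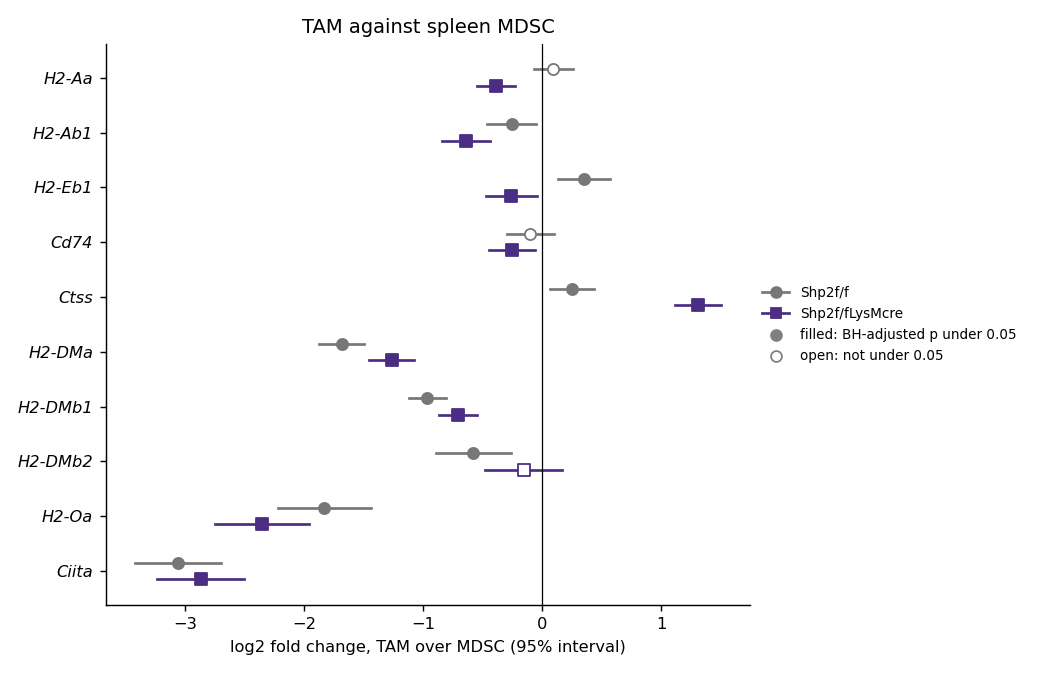
Log2 fold change of TAM over MDSC for each member (x axis) in Shp2f/f (circles) and Shp2f/fLysMcre (squares), with 95% intervals as lines and filled symbols for an edgeR adjusted p under 0.05. Ciita lies near −3 in both genotypes, H2-Oa and H2-DMa between −2.36 and −1.26, and H2-Aa, H2-Ab1, H2-Eb1 and Cd74 between −0.64 and 0.35.

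Ratios within a library do not depend on library size or scaling, and are given here per kilobase of exon. Their absolute size depends on the exon lengths used, which are the same in every library, so they are compared between groups only. The I-A chains kept nearly the same proportion across genotypes, with H2-Aa to H2-Ab1 at 0.617 ± 0.00552 (SD, n = 2) and 0.643 ± 0.0558 in MDSC and 0.787 ± 0.0137 (n = 3) and 0.763 ± 0.0198 in TAM, Shp2f/f first. H2-Eb1 to H2-Ab1 was 0.724 to 0.821 in the 4 MDSC libraries and 1.03 to 1.13 in the 6 TAM libraries. Cd74 to H2-Ab1 was 4.89 to 5.04 in Shp2f/f TAM and 5.62 to 5.86 in Shp2f/fLysMcre TAM, so in TAM this ratio was higher in the deleted genotype. In MDSC the genotypes overlapped, at 4.45 and 4.44 in Shp2f/f and 4.57 and 4.20 in Shp2f/fLysMcre. Ctss to H2-Ab1 was 16.2 to 17.4 in Shp2f/f TAM and 31.7 to 34.4 in Shp2f/fLysMcre TAM, and 11.8 to 12.0 against 7.67 to 9.496 in MDSC. The genotypes did not overlap in this ratio in either cell type, and they lay in opposite order.

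H2-DMa to H2-Ab1 was 0.319 and 0.339 in Shp2f/f MDSC, 0.237 and 0.255 in Shp2f/fLysMcre MDSC, 0.120 to 0.124 in Shp2f/f TAM and 0.156 to 0.163 in Shp2f/fLysMcre TAM. The chaperone RNA was therefore scarcer against that of the chain in TAM than in MDSC, and the genotypes again lay in opposite order. H2-DMa to H2-DMb1, the partner chains of DM, was higher in MDSC (1.12 to 1.29) than in TAM (0.741 to 0.790). Ciita to H2-Ab1 was 0.0345 to 0.0670 in MDSC and 0.00731 to 0.0114 in TAM, with overlapping genotypes in each. H2-Oa to H2-DMa, the alpha chain of DO over that of DM, was 0.0505 and 0.0583 in Shp2f/f MDSC and 0.0969 and 0.106 in Shp2f/fLysMcre MDSC, and 0.0450 to 0.0523 over all TAM libraries. H2-Ob, the beta chain of DO, went the other way in MDSC, at 7.04 and 8.65 CPM in Shp2f/f and 4.14 and 4.74 CPM in Shp2f/fLysMcre. The H2-Oa ratio is therefore not a measure of DO against DM. These ratios are descriptions and were not tested.

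**Figure D4:**
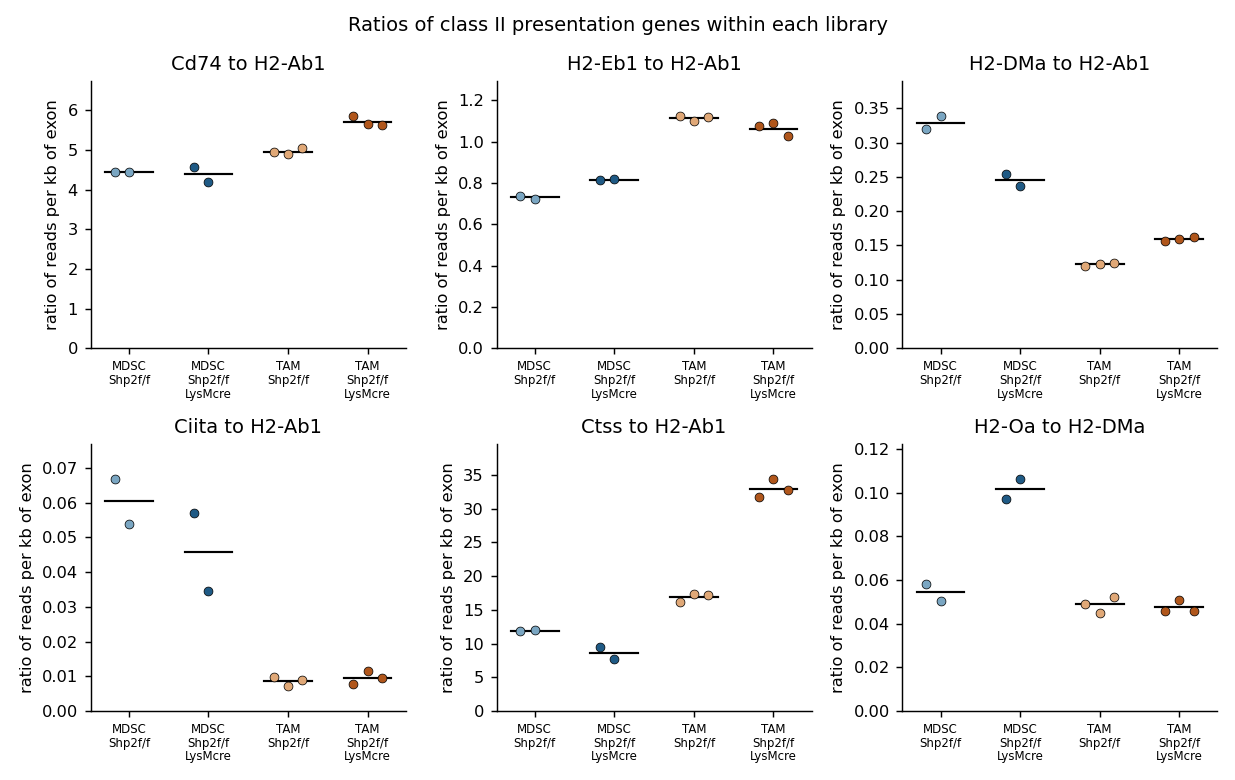
Ratio of reads per kilobase of exon between class II genes (y axis, from 0) in each library of the 4 groups (x axis), with 1 point per library and a bar at the group mean. Ctss to H2-Ab1 is highest in Shp2f/fLysMcre TAM at 31.7 to 34.4, Ciita to H2-Ab1 does not exceed 0.0114 in TAM, and H2-Oa to H2-DMa is highest in Shp2f/fLysMcre MDSC.

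Other steps of the class II pathway were counted in the same way, beside the 50.2% of all genes called in TAM. Of 14 genes for peptide processing and class II turnover, 9 rose and 1 fell in Shp2f/fLysMcre TAM, with a median log2 fold change of 0.34 against −0.01 over all genes. March1, the ubiquitin ligase that sends surface class II molecules to degradation, rose from 40.3 to 44.4 CPM to 87.9 to 93.1 CPM (log2 fold change 1.05, SE 0.0466, edgeR adjusted p = 3.25e-08). Lgmn, the asparaginyl endopeptidase that cuts antigens and the invariant chain, rose from 3144 to 3317 CPM to 4922 to 5510 CPM (0.67, edgeR adjusted p = 1.25e-07). The lysosomal cathepsin genes Ctsh (0.72), Ctsd (0.69) and Ctsb (0.67) rose by as much, as Ctss did. The gene that fell was Cd9, a tetraspanin found with class II molecules at the membrane (−0.53, edgeR adjusted p = 2.59e-06; named after its value was seen).

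The counts of the following lists stand beside 23.9% of all genes called higher and 26.3% called lower in TAM. Of 13 genes for interferon-gamma signaling to Ciita, 9 rose and the other 4 were not called, with the largest changes for the transcription factors Irf8 (0.70, edgeR adjusted p = 2.13e-07), Usf1 (0.48) and Irf2 (0.35), the receptor chain Ifngr1 (0.34) and Irf1 (0.27). Of 15 interferon-gamma induced genes, 10 rose and the other 5 were not called, with the GTPase genes Iigp1 (0.60), Gbp6 (0.32), Irgm1 (0.31), Igtp (0.27) and Gbp2 (0.21) leading. The genes of the factors that bind class II promoters were split, 2 higher (Ep300 at 0.20, Creb1 at 0.15) and 2 lower (Nfya at −0.31, Nfyb at −0.16) of 9, a share near that of all genes. Among these, the 3 subunits of RFX, the factor specific to class II promoters, were not called, at 0.00 for Rfx5, −0.05 for Rfxap and 0.12 for Rfxank.

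Of 7 ligands for T cell costimulatory and checkpoint receptors, 5 rose and 1 fell in TAM. Cd274, which encodes PD-L1, rose from 169 to 177 CPM to 272 to 305 CPM (log2 fold change 0.70), Cd83, whose product counters the effect of MARCH1 on class II, rose by 0.49, and Cd80 was the one that fell (−0.28). Icosl (0.23) and Cd40 (0.19) rose less. None of the 2 tested genes among the other class II chains was called, with H2-Eb2 at −0.46 and H2-Ob at −0.37 (edgeR adjusted p = 0.129 and 0.186). With total-count scaling the called genes named from these lists, Cd9 aside, which was not refitted, kept their direction, and the calls of Creb1, Ep300, Icosl and Cd40 were lost.

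**Figure D5:**
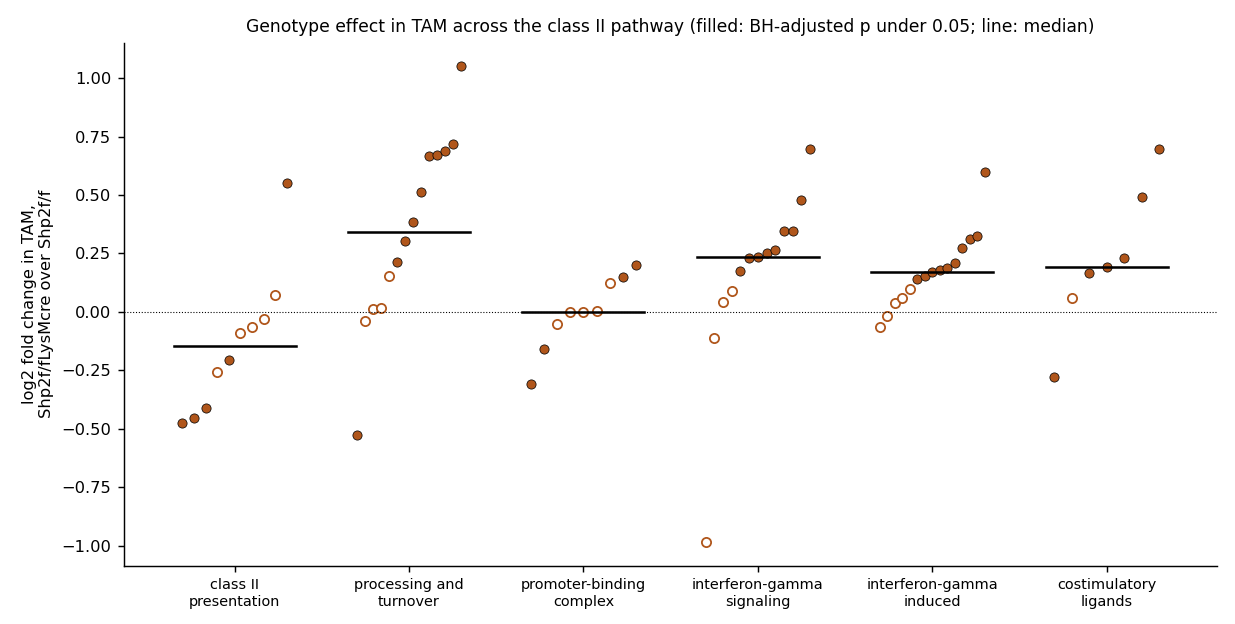
Log2 fold change of Shp2f/fLysMcre over Shp2f/f in TAM (y axis) for the members and 5 other gene lists of the class II pathway (x axis), with 1 point per gene ordered by value, filled for an edgeR adjusted p under 0.05 and a bar at the list's median. The members' median lies at −0.15 and that of the processing and turnover genes at 0.34, with Ctss the single filled member above 0.

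In MDSC few of these genes were called. Of the 14 processing and turnover genes 3 rose, the tetraspanins Cd63 (log2 fold change 2.08), Cd9 (1.13) and Cd82 (0.73), and the other 11 were not called, while the median of the list was −0.20. The calls of Cd63, Cd9, Cd82 and Cxcl10 were each lost when 1 library was left out, for 2 of the 4 libraries. Among the interferon-gamma induced genes 2 rose, of which Cxcl10, a chemokine that draws T cells, was at 3.40 and 4.04 CPM in Shp2f/f and 10.7 and 14.6 CPM in Shp2f/fLysMcre (1.76, edgeR adjusted p = 0.0208). The other was Cxcl9 (2.60), named after its value was seen. Without either Shp2f/f MDSC library edgeR called 1 of all genes, Lyz2, so no rise in MDSC held there. No gene was called among the signaling genes (12 tested), the promoter-binding factors (9) or the costimulatory ligands (7) by edgeR, and 3, 1 and 2 of them had an unadjusted p under 0.05. The share of all genes under that value was not counted. March1, at 135 and 151 against 96.3 and 140 CPM, had a log2 fold change of −0.28 (edgeR adjusted p = 0.542), and its genotype effect in TAM exceeded that in MDSC by 1.37 on the log2 scale (SE 0.186, edgeR adjusted p = 0.000662).

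Markers of other cells that express class II moved with the groups. The 14 B cell markers summed to 1625 to 2164 CPM in Shp2f/f MDSC and 1132 to 1455 CPM in Shp2f/fLysMcre MDSC, nearly all of it Ighm, the immunoglobulin mu chain. Without Ighm the sums were 76.9 to 97.9 and 71.1 to 72.8 CPM in MDSC and 27.8 to 28.9 and 53.3 to 57.1 CPM in TAM, Shp2f/f first, with no marker at 0 in any library. The TAM counts that follow stand beside 23.9% of all genes called higher and 26.3% called lower. The MDSC count stands beside 0.52% called lower. In TAM 3 of the 7 B cell markers tested rose, Cd79b (1.57), Cd22 (1.23) and Ighm (0.66), and the other 4 were not called. In MDSC 4 of 14 fell, calls that did not hold without either Shp2f/f library. The 12 dendritic cell markers summed to 178 to 182 and 186 to 192 CPM in MDSC and to 125 to 131 and 115 to 121 CPM in TAM, with at most 1 marker at 0 in a TAM library. In TAM 4 of the 10 tested fell, Cadm1 (−0.64) and Ccr7 (−0.41) among them, and 3 rose, Kmo (0.29) and Itgax (0.11) among them. Of the 12 macrophage and monocyte markers, 10 rose in TAM, C1qb (0.74) and C1qa (0.73) among them. The 2 that fell were Ccr2 (mean 407 to 305 CPM) and Cx3cr1 (26.7 to 20.7 CPM), named after their values were seen. Of the 9 neutrophil markers tested 5 rose, with Cxcr2 at 1.03, Mmp8 at 0.95 and Csf3r at 0.72. The other 4 were not called, and the means of Ngp (5.62 to 4.55 CPM), Ltf (4.25 to 3.68 CPM) and Camp (1.21 to 1.18 CPM) were lower in Shp2f/fLysMcre, while that of Retnlg was higher (5.61 to 6.56 CPM). Of 8 T cell markers 7 fell (median −1.08), at summed levels of 15.6 to 17.6 CPM in Shp2f/f and 7.90 to 7.97 CPM in Shp2f/fLysMcre. The part of these cells in the members' values was not tested.

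Likeness to the members was measured as Pearson's r with the mean standardized log2 CPM of H2-Aa, H2-Ab1, H2-Eb1 and Cd74. Over the 10 libraries and 10075 genes, the genes outside the list with the highest r were Ppie, Polr2e, Mrpl51, Rps2 and Ndufv1, all at 0.97. Over the 6 TAM libraries and 9833 genes they were Plekhf1, Anp32b, Slc25a39, Ranbp1 and Rplp1, at 0.998 to 0.999. In both sets the libraries fall into the study's groups, so these values rest on group means and share library scaling. Among the other members, H2-DMb1 had an r of 0.52 over all libraries, H2-DMa 0.48, Ciita 0.47, H2-DMb2 0.29 and Ctss −0.74.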

How the data were processed

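Whole-transcriptome libraries (poly(A) selected, stranded kit, paired-end) were trimmed with Cutadapt 2.5 after FastQC 0.11.5, aligned with STAR 2.7.3a to GRCm38 and counted with featureCounts (Subread 1.6.2), per the study's methods and the submitters' processing notes. The raw counts per gene deposited by the authors were used as they stand; the table the authors normalized with DESeq2 1.24.0 was not used. Strand and multimapping settings are not given in the sources used here. Exon lengths, locations and symbols came from GENCODE M21, which matched 99.52% of identifiers, and 24391 genes were at 0 in every library. Replicates differed by more than sampling noise (chi-square per degree of freedom 4.63 to 64.5).

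Levels are CPM after TMM over all 10 libraries, and marker sums are CPM of the total count. Tests used edgeR 4.0.16 in R 4.3.3 (quasi-likelihood F test, TMM, filterByExpr with a minimum count of 10, Benjamini-Hochberg adjustment over all genes tested, threshold 0.05). Each genotype comparison was fitted within its cell type, and the interaction and cell type comparisons in one fit of 4 groups. The SE is the log2 fold change over the square root of F, and intervals are 95%. Code was tested on simulated data. Alternatives used DESeq2 1.42.0, limma 3.58.1 (voom), other scalings and filters, Storey q values, a replicate block and leaving out each library; voom with weights per cell type and a replicate block shared by both cell types were chosen after seeing the data. All counts rest on at least 24 reads of a member per library.

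The members and lists were chosen with earlier results of these data known. Of each other list, up to 5 called genes were named per comparison, those with the largest absolute log2 fold change among genes averaging 5 CPM or more, and of cell markers also the most abundant. Some genes that this rule names are not reported here. The gene identifiers March1 and H2-Ea-ps stand for Marchf1 and H2-Ea.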

Additional observations from a re-analysis of the deposited data

Results flagged for a closer look

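The genotype effect differed between TAM and MDSC, by the interaction test of edgeR, for 4 members. The difference, TAM minus MDSC, was −0.48 for H2-Aa, −0.61 for H2-Eb1, 0.42 for H2-DMa and 1.06 for Ctss on the log2 scale. For H2-Aa and H2-Eb1 it came with lower values in Shp2f/fLysMcre TAM and overlapping values in MDSC. For H2-DMa it came with overlapping values in TAM and lower values in Shp2f/fLysMcre MDSC, and for Ctss with opposite directions. With libraries of the same number paired across the cell types, the differences of H2-Aa, H2-Eb1 and H2-DMa were no longer called (edgeR adjusted p = 0.109, 0.128 and 0.137). No group held enough libraries for a test of single outlying samples.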

How the results depend on the processing

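In MDSC the 0 members called became 1 with DESeq2, 4 (all lower) with the replicate block and 3 in one fit of all 10 libraries, and 0 to 3 when 1 library was left out. The count over all genes, 633, became 1256 with DESeq2, 130 with no low-count filter, 2674 with the replicate block, 2666 in one fit of all 10 libraries and 1 to 4406 when 1 library was left out. In TAM the 5 members became 8 with total-count scaling, 7 with Storey q values, 6 with no low-count filter and 5 to 6 when 1 library was left out (without the second Shp2f/fLysMcre library Cd74 was lost and Ciita gained), and the 7257 genes became 4837 in one fit of all 10 libraries. For the difference between cell types, leaving out 1 library gave 2 to 5 members and 2446 to 7023 genes, and the replicate block across cell types, chosen after seeing the data, gave 1 member and 970 genes in place of 4 and 4132. With that block 8 members became 5 for TAM against MDSC in Shp2f/f.

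Values near 0 changed sign without a call. In MDSC, Cd74 was 0.0286 with total-count scaling and −0.101 to 0.0606 when 1 library was left out, H2-Ab1 was −0.0132 with no filter and −0.118 to 0.0889 when 1 library was left out, and H2-Aa ran from −0.0173 to 0.128. In TAM, H2-DMb2 was −0.0256 with total-count scaling and −0.0466 to 0.174 when 1 library was left out, and H2-DMa was 0.00529 in one fit and −0.0682 to 0.000287 when 1 library was left out. The difference for Ciita ran from −0.0235 to 0.457. The cause was not tested. Total-count scaling moved the median of all genes to −0.18 for the difference and −0.26 for TAM against MDSC in Shp2f/fLysMcre, where 4297 genes were then called higher and 7440 lower in place of 5354 and 6075, and no member was reversed there. With CPM of the total count, 11 group levels of members moved by over 1 SD and 29 did not.

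Replicate numbers were not found to pair the TAM samples. Deviations of same-numbered TAM libraries correlated at −0.29, 0.12 and −0.06. Those of same-numbered MDSC libraries correlated at 0.50 and of differently numbered ones at −0.50, a mirror image that 2 libraries a group force. Whether the numbers pair the MDSC samples was therefore not settled. Between MDSC and TAM, same-numbered libraries correlated at 0.0997 and 0.120 in Shp2f/f and −0.170 and −0.0928 in Shp2f/fLysMcre, and whether they share a mouse is not given. With 2 MDSC libraries a group, the other MDSC number gives each of these values with the opposite sign. With the replicate block within each cell type the MDSC calls were H2-DMa, H2-DMb1, Ciita and Ctss, the difference for H2-Ab1 was called at −0.38 (edgeR adjusted p = 0.0152), and no other member's call changed. Where leaving out a library left 1 sample in a group, its spread was taken from the others. H2-Oa in TAM could not be tested under the 1 CPM filter.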
